A study of Mus musculus with 14 samples.

Results

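The nuclear-encoded genes of the mitochondrial respiratory chain were followed in hippocampal RNA of naive male mice. Members were the 89 of 24421 genes of the count table whose symbols start with Nduf, Sdh, Uqcr, Cox4, Cox5, Cox6, Cox7, Cox8 or Atp5, after 7 further matches on chromosomes 5 and 8 had been left out. They comprised 34 genes of complex I, 4 of complex II, 8 of complex III, 17 of complex IV and 13 of complex V, and 13 genes for assembly or other factors whose products are no subunits of the finished complexes. Ndufa4 and Ndufa4l2 were counted with complex IV, where their products belong. Of the 89 members, 85 passed the filter on low counts, among them 72 of 76 subunit genes and 13 of 13 factor genes.

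The 7 mice labelled LPAR2-/- carried a homozygous deletion within exon 2 of the gene of lysophosphatidic acid receptor 2, and 7 wild-type (WT) mice served as controls, all untreated. The labels give the strain 129.C57Bl6 and an age of 10 to 12 weeks for both groups, while the series text calls the mice middle-aged or older, so that their age is uncertain. The knockout colony was bred as homozygotes beside a control colony of mixed C57BL/6 and 129/SvJ background, and genotype and colony cannot be told apart in any comparison. The labels and the study's methods name the hippocampus, while its results speak of the dentate gyrus. Counts on Lpar2 were higher in the mice labelled LPAR2-/- (8.20 to 12.3 CPM, counts scaled to the library total) than in WT mice (1.51 to 3.23 CPM), against what the label would give for the intact transcript. Counts per gene do not show which part of the transcript the reads came from, so the genotype was taken from the labels and directions below are those of the libraries labelled LPAR2-/-.

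Between 15434620 and 23258949 reads were counted on genes per LPAR2-/- library, and between 16373410 and 21992980 per WT library. The members took up 0.759 to 0.791% of them in LPAR2-/- mice and 0.733 to 0.826% in WT mice. The granule cell gene Prox1 (39.4 to 55.1 CPM in LPAR2-/- and 33.5 to 45.2 CPM in WT mice) and the CA1 gene Wfs1 (37.4 to 65.5 and 37.5 to 47.4 CPM) were present in every library. Of 14 neuronal, 9 astrocyte, 9 oligodendrocyte and 8 microglial markers tested, 0 passed edgeR's adjusted p of 0.05 (2 in all at an unadjusted p under 0.05; DESeq2 called 1, Map2, and limma 0), and the summed neuronal markers reached 14906 to 17452 CPM in LPAR2-/- and 14988 to 17099 CPM in WT mice. Of the neuronal markers 3 of 14 had log2 fold changes above 0 (median -0.05), and of the astrocyte markers 2 of 9 (median -0.03). The oligodendrocyte markers summed to 1010 to 4072 CPM in LPAR2-/- mice, the highest far above the WT range of 1249 to 2122 CPM, and 8 of the 9 had log2 fold changes above 0 (median 0.17). The meningeal list of 10 genes summed to 102 to 468 CPM in LPAR2-/- and 78.1 to 343 CPM in WT mice, with 9 of 10 log2 fold changes above 0 (median 1.05), 1 gene called higher (Lum) and 8 at an unadjusted p under 0.05. The list of 11 pericyte and smooth muscle genes summed to 220 to 425 and 172 to 365 CPM, with 7 of 11 above 0 (median 0.31) and 1 called higher (Notch3). The choroid plexus list reached 443 CPM in an LPAR2-/- mouse, with a highest WT sum of 99.2 CPM, and 5 of 5 genes tested were above 0 (median 0.43). The part of these sums in the results on the members was not tested. In tissue RNA, fewer cells of a type and less RNA per cell cannot be told apart.

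The respiratory chain of the inner mitochondrial membrane moves electrons from NADH (complex I) and succinate (complex II) over complex III to oxygen at complex IV, and complex V (ATP synthase) uses the proton gradient built up on the way to make ATP. Neurons depend on it for most of their ATP, because restoring ion gradients after firing is costly. Complexes I, III, IV and V combine subunits from nuclear and mitochondrial genes, whereas all subunits of complex II are nuclear. Assembly factors help to build the complexes without staying in them. Genes of the mitochondrial genome were not analysed here.

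Few subunit genes differed between the groups beyond the spread among mice, and 4 of the 13 factor genes did. The split into subunits and factors was chosen with earlier results of these data known. Of the 72 subunit genes tested, 2 passed an adjusted p of 0.05 (edgeR's quasi-likelihood test with Benjamini-Hochberg adjustment over all 14897 genes tested), both lower in LPAR2-/- mice, which is 2.78% of them. Among all genes tested off chromosomes 5 and 8 the same rule called 6.03%, with 3.01% higher and 3.01% lower, and among all genes tested it called 6.77%. The 4 factor genes were 30.8% of theirs, with 1 higher and 3 lower. The 6 called members together were 7.06% of those tested, a share near the background. Scaling to the upper quartile instead of TMM changed the balance of all calls from 494 higher and 515 lower to 616 higher and 377 lower, and that of the members from 1 higher and 5 lower to 2 higher and 1 lower. The called factor genes were Ndufaf2, Ndufaf4 and Sdhaf2, which were lower, and Sdhaf1, which was higher. The called subunit genes were Ndufc2 of complex I and Atp5g1 of complex V. Of 14 fits that left out a mouse, 14 called Ndufaf2 and Sdhaf1, and 5 called Ndufaf4. Sdhaf2, Ndufc2 and Atp5g1 were called in 2 of 14 each. Labels name each library as a mouse, and p-values measure the spread between these mice.

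**Figure D1:**
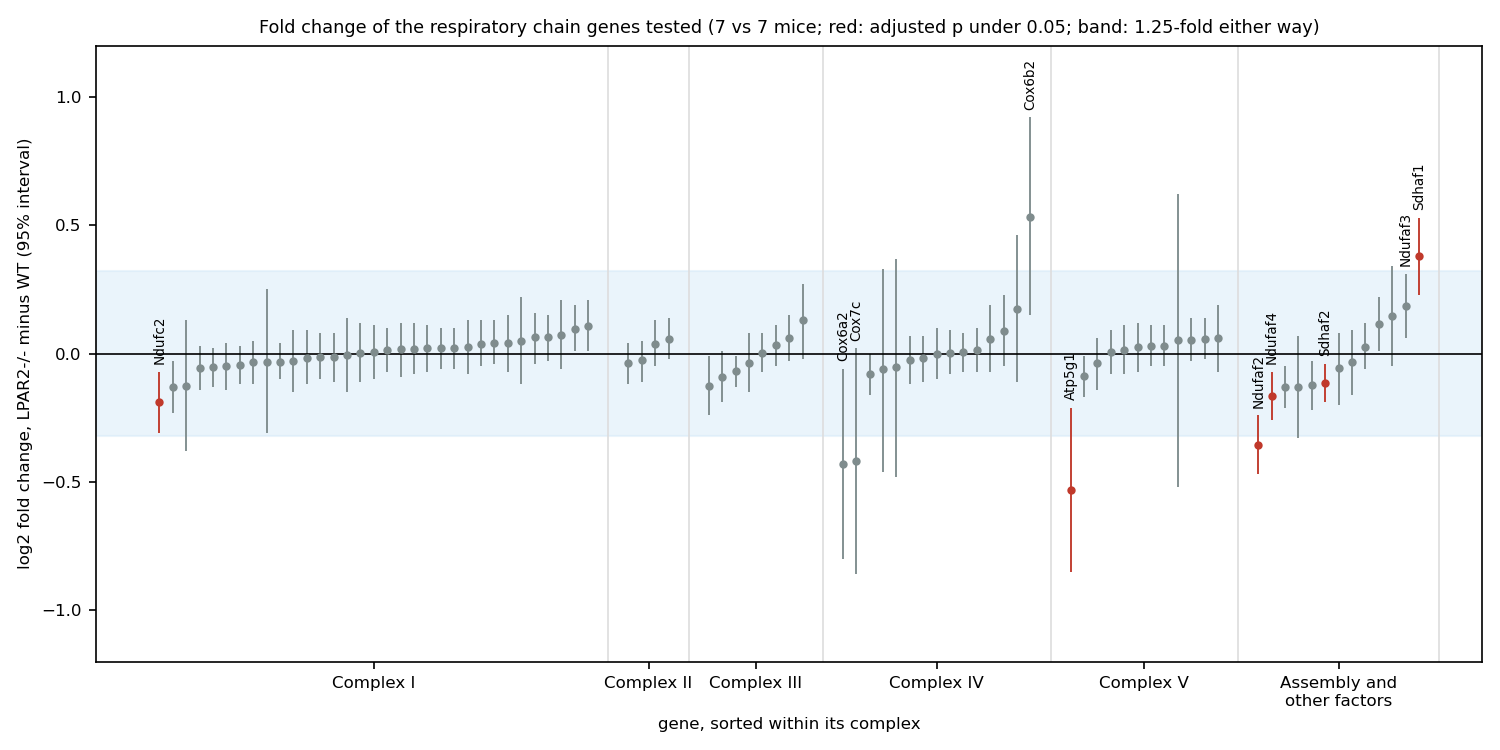
Log2 fold change of the 85 members tested (LPAR2-/- minus WT, 7 mice each), sorted within each complex, with 95% intervals from the edgeR fit. The 6 genes past an adjusted p of 0.05 are red, the band spans 1.25-fold either way, and 63 of the 72 subunit genes have intervals that lie wholly inside it.

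Ndufaf2 encodes an assembly factor that joins a late intermediate of complex I and is absent from the finished enzyme. It lies on the minus strand at chr13:108052589-108158625 (mm10). The lowest, median and highest WT mice had 11, 12.2 and 12.6 CPM, and the LPAR2-/- mice 8.98, 9.60 and 9.69 CPM. Every LPAR2-/- mouse was below every WT mouse. The groups of 168 of the 13202 genes tested off chromosomes 5 and 8 did not overlap (1.27%). Means were 9.38 ± 0.329 CPM in LPAR2-/- and 12.0 ± 0.613 CPM in WT mice (SD, n = 7), a log2 fold change of -0.36 (SE 0.0527, 95% interval -0.47 to -0.24, edgeR adjusted p = 0.000935). These values rest on 150 to 273 reads per library. The gene passed the threshold in 14 of 14 fits that left out a mouse, with adjusted p between 0.00123 and 0.00346, and in 7 of 7 other settings. Among its 10 tested neighbours within 2 Mb no gene was called by edgeR, and none of its stretches of 50 bases occurs in transcripts of another gene (0.0%).

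Sdhaf1 moved in the opposite direction. Its product is an assembly factor of succinate dehydrogenase (complex II) that acts on the iron-sulfur subunit, and loss of the human gene impairs complex II. The gene lies on the minus strand at chr7:30321409-30322375. WT mice had 8.38, 9.35 and 11.1 CPM (lowest, median, highest), and LPAR2-/- mice 11.9, 12.3 and 13.7 CPM. Again the groups did not overlap. Means were 12.6 ± 0.724 and 9.66 ± 1.04 CPM (SD, n = 7), and the log2 fold change was 0.38 (SE 0.0711, 95% interval 0.23 to 0.53, edgeR adjusted p = 0.00478). It was called in 14 of 14 fits without a mouse (adjusted p 0.00272 to 0.0135) and in 7 of 7 other settings. Of its stretches of 50 bases, 69.0% also occur, on either strand, in transcripts of E130208F15Rik, a gene that GENCODE M21 places on the opposite strand at chr7:30321740-30323472, over 65.8% of the counted Sdhaf1 bases. E130208F15Rik is not in the count table, reads were counted by strand, and the part of its reads in the Sdhaf1 counts was not tested. Of 94 neighbours tested within 2 Mb, 3 were called (3.19%).

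Stretches of both promoters are shown because these were the only members called in each of the 21 alternative fits. The 30 bases around a shared word in the RefSeq promoter (GRCm38.p6, the assembly of mm10) are given 5′ to 3′ on the gene's strand, chr13:108158689-108158718 for Ndufaf2 and chr7:30322452-30322481 for Sdhaf1. In GENCODE the Sdhaf1 transcript starts further upstream than in RefSeq, and its window lies inside that transcript. Capitals mark CCAATCAG, an extended form of the CCAAT box, searched on both strands.
Ndufaf2: gctctcattggCCAATCAGcgatgtggcct
Sdhaf1: tgcagtactggCCAATCAGatgcggcagcg
This word was picked after both sequences had been read. Over windows from 250 bases before to 50 after the start it occurred in 5 of 74 members with a promoter (6.8%) and in 4.7% of 27025 genes, and the plain CCAAT in 41.9% and 41.06%. The other carriers were Ndufa6, Ndufb11 and Ndufs8, with 95% intervals that span 0. A match is a description of letters and not of a bound site, and the genes that share this word here moved in opposite directions.

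**Figure D2:**
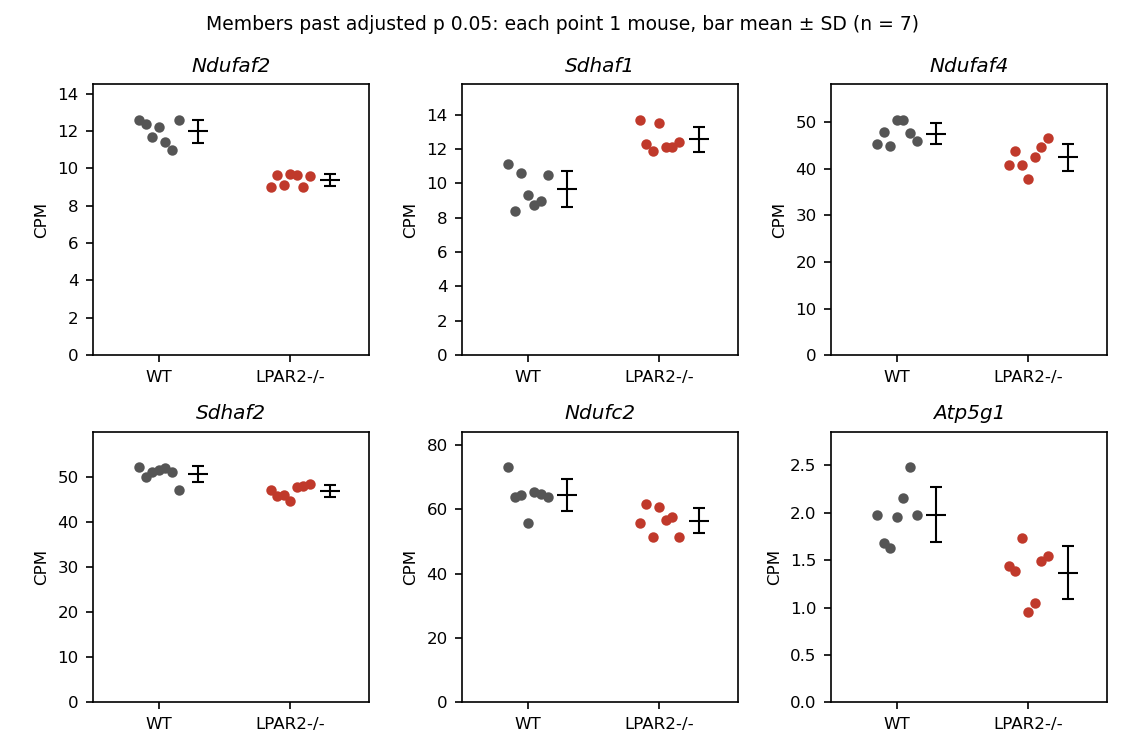
CPM (TMM-scaled) of the 6 called members in each of 7 WT and 7 LPAR2-/- mice, with the mean and SD of each group beside the points, on axes from 0. Groups separate fully for Ndufaf2 and Sdhaf1, and overlap for Ndufaf4, Sdhaf2, Ndufc2 and Atp5g1.

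The other called factor genes had smaller differences. Ndufaf4 (chr4:24898083-24905001, plus strand) encodes a complex I factor that works with Ndufaf3 early in assembly. WT mice had 44.9, 47.7 and 50.5 CPM (lowest, median, highest), and LPAR2-/- mice 37.9, 42.5 and 46.6 CPM. The ranges overlapped, and the difference was -0.17 on the log2 scale (SE 0.0469, 95% interval -0.26 to -0.07, edgeR adjusted p = 0.0443). Sdhaf2 (chr19:10500512-10525209, minus strand), which attaches FAD to the flavoprotein subunit of complex II, had 47.0, 51.1 and 52.1 CPM in WT and 44.6, 47.1 and 48.4 CPM in LPAR2-/- mice. Its difference was -0.12 (SE 0.0336, 95% interval -0.19 to -0.04, edgeR adjusted p = 0.0492), with overlapping ranges. Both sat close to the threshold, and of the 14 fits without a mouse, 5 called Ndufaf4 and 2 called Sdhaf2.

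Further factors lay just outside the threshold. Ndufaf5, which hydroxylates a complex I core subunit during assembly, had 26.3, 27.3 and 29.1 CPM in WT and 24.1, 25.7 and 26.1 CPM in LPAR2-/- mice. Its groups did not overlap, and the log2 fold change was -0.13 (95% interval -0.21 to -0.05, edgeR adjusted p = 0.0506). It passed the threshold with limma (adjusted p = 0.0487) and in 0 of 14 edgeR fits without a mouse. Ndufaf3, the partner of Ndufaf4, pointed the other way, with 19, 22.1 and 24.6 CPM in WT and 22.7, 25.1 and 26.6 CPM in LPAR2-/- mice and a log2 fold change of 0.19 (95% interval 0.06 to 0.31, edgeR adjusted p = 0.0672). It passed the threshold with DESeq2, with upper quartile scaling and without WT mouse 1 or WT mouse 7. The partners in early complex I assembly had values of opposite sign, of which 1 (Ndufaf4) was called. Ndufaf7, a methyltransferase of complex I assembly, had a log2 fold change of -0.12 (edgeR adjusted p = 0.116) and Sdhaf4, another complex II factor, of 0.11 (edgeR adjusted p = 0.196). Intervals of Ndufaf1 (-0.16 to 0.09), Ndufaf6 (-0.05 to 0.34) and Sdhaf3 (-0.33 to 0.07) spanned 0.

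Of the 13 factor genes, 8 had an unadjusted p under 0.05 (61.5%), while this was so for 11 of 72 subunit genes (15.3%) and 21.5% of genes tested off chromosomes 5 and 8. Groups did not overlap for 3 of 13 factor genes and for 0 of 72 subunit genes, beside 1.27% of genes tested off chromosomes 5 and 8. The median absolute log2 fold change was 0.131 for factors, 0.041 for subunits and 0.087 for all genes tested, with median SEs of 0.053, 0.045 and 0.071. By assembly line, 2 of 7 complex I factors and 2 of 4 complex II factors were called, the first with a median log2 fold change of -0.121 and the others with signs split evenly. Assembly factors outside the naming rule served as a wider list. Of 34 tested, 0 were higher and 2 lower (Timmdc1, a complex I factor, -0.19 with edgeR adjusted p = 0.0257, and Tmem70, which aids complexes I and V, -0.15 with adjusted p = 0.0317), and their median was -0.01. DESeq2 called 3, with Ecsit (log2 fold change 0.13, edgeR adjusted p = 0.0657) as the third, limma called 2, and 5 had an unadjusted p under 0.05. Off chromosomes 5 and 8, edgeR called 3.01% of genes in each direction.

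Complex I subunits had the smallest median absolute log2 fold change of the complexes, 0.034. Of 33 tested, 1 was called, 18 had values above 0, and log2 fold changes ran from -0.19 to 0.11 with a median of 0.007. The 7 core subunits, which carry the flavin and the iron-sulfur clusters, had a median of 0.025. Ndufs1, the largest of them, had a log2 fold change of 0.01 (95% interval -0.07 to 0.10) and Ndufv1, which binds NADH, of 0.04 (-0.05 to 0.13). The widest core difference was that of Ndufs3, at 0.11 with an edgeR adjusted p of 0.172, and its stretches of 50 bases were shared with other genes, mostly a pseudogene, for 39.7%. Accessory subunits had a median of -0.009.

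The called accessory subunit Ndufc2 lies in the membrane arm (chr7:97400003-97407800, plus strand). WT mice had 55.9, 64.5 and 73.2 CPM (lowest, median, highest), and LPAR2-/- mice 51.6, 56.7 and 61.8 CPM. The ranges overlapped through WT mouse 4 (55.9 CPM), as the other 6 WT mice lay above the highest LPAR2-/- mouse, and the difference of -0.19 (SE 0.0552, 95% interval -0.31 to -0.07) had an edgeR adjusted p of 0.0493. Of the fits without a mouse 2 of 14 called it, that without WT mouse 4 with an adjusted p of 0.0242, and so did 2 of 7 other settings. Among its 29 neighbours tested within 2 Mb, 4 were called (13.8%). Ndufb10, also of the membrane arm, had 82.6, 87.3 and 94.5 CPM in WT and 73.2, 78.4 and 89.0 CPM in LPAR2-/- mice, a difference of -0.13 that missed the threshold (edgeR adjusted p = 0.112). Ndufv3 of the NADH-oxidising module had a difference of 0.10 (edgeR adjusted p = 0.191). Ndufa12 had the widest interval of the subunits over 10 CPM, -0.38 to 0.13, with LPAR2-/- mice between 11.2 and 21.6 CPM and WT mice between 16.8 and 22.0 CPM.

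In complex II all 4 subunits were measured well and 0 were called by edgeR, DESeq2 or limma, and 0 had an unadjusted p under 0.05. The flavoprotein Sdha had 417, 448 and 472 CPM in WT and 416, 435 and 457 CPM in LPAR2-/- mice, a log2 fold change of -0.04 (95% interval -0.12 to 0.04). The iron-sulfur subunit Sdhb had 0.04 (-0.05 to 0.13), and the membrane anchors Sdhc and Sdhd had 0.06 (-0.02 to 0.14) and -0.03 (-0.11 to 0.05). All intervals lay within 1.25-fold. The subunits that Sdhaf1 and Sdhaf2 serve, Sdhb and Sdha, had intervals that span 0, beside called differences of the factors themselves.

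Complex III was alike in its counts, with 0 of 8 genes called by edgeR, DESeq2 or limma, 2 at an unadjusted p under 0.05, and all 8 intervals within 1.25-fold. The core proteins Uqcrc1 and Uqcrc2 had log2 fold changes of 0.06 (95% interval -0.03 to 0.15) and 0.03 (-0.05 to 0.11), and the Rieske iron-sulfur protein Uqcrfs1 of 0.00 (-0.07 to 0.08). The values with the smallest p were those of small accessory subunits. Uqcrh had 91.2, 93.2 and 98.7 CPM in WT and 87.8, 90.1 and 91.4 CPM in LPAR2-/- mice, a difference of -0.07 (edgeR adjusted p = 0.166). The ranges met at their edges. Uqcrb differed by -0.13 (95% interval -0.24 to -0.01, edgeR adjusted p = 0.186), and 43.4% of its stretches of 50 bases occur in other genes, mostly pseudogenes.

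Complex IV had the widest fold changes, from -0.43 to 0.53, and the 3 widest were at genes with group means of 0.750 to 1.6 CPM. Of 15 tested, 0 were called by edgeR, DESeq2 or limma (3 at an unadjusted p under 0.05), and 7 had values above 0. Cox6b2, an isoform best known from testis, had 0.831, 1.09 and 1.55 CPM in WT and 1.13, 1.61 and 2.16 CPM in LPAR2-/- mice, with a log2 fold change of 0.53 (95% interval 0.15 to 0.92, edgeR adjusted p = 0.0935). Its brain counterpart Cox6b1, at 131 ± 6.98 CPM in WT mice (SD, n = 7), had an interval of -0.12 to 0.07. Cox6a2, the isoform of heart and skeletal muscle, had a difference of -0.43 (95% interval -0.80 to -0.06, edgeR adjusted p = 0.158) at 11 to 33 reads per library. The muscle form Cox7a1 and the lung form Cox4i2 had intervals of -0.46 to 0.33 and -0.48 to 0.37. Cox8b, another muscle isoform, reached at most 6 reads in a library and Cox8c 1 read, and neither was tested.

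Among the ubiquitous subunits of complex IV, Cox5a had 88.1, 90.8 and 102 CPM in WT and 82.8, 88.4 and 90.4 CPM in LPAR2-/- mice, a difference of -0.08 (SE 0.0369, edgeR adjusted p = 0.212). Cox5b had 20.2, 22.8 and 24.6 CPM in WT and 21.4, 23.6 and 27.8 CPM in LPAR2-/- mice, a difference of 0.09 (95% interval -0.05 to 0.23, edgeR adjusted p = 0.462). The ranges of both genes overlapped. Intervals of Cox6c (-0.07 to 0.08), Cox7a2 (-0.11 to 0.07), Cox7b (-0.08 to 0.09), Cox8a (-0.07 to 0.19) and Ndufa4 (-0.07 to 0.10) included 0, as did that of Cox7a2l (-0.10 to 0.10), which links complexes III and IV in supercomplexes. Ndufa4l2, the hypoxia-responsive relative of Ndufa4, had 1.59 to 2.50 CPM in WT and 1.90 to 2.66 CPM in LPAR2-/- mice (interval -0.11 to 0.46). Cox7c, an obligate subunit, was counted at 1.01 ± 0.236 CPM in WT mice (SD, n = 7), and 23.0% of its stretches of 50 bases occur in pseudogenes, whose shared reads were left out of the counts. Its difference of -0.42 (interval -0.86 to 0.02) rests on 7 to 26 reads per library.

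In complex V, 9 of 12 genes tested had values above 0, with a median of 0.027 on the log2 scale, and 1 was called. The catalytic head subunits were the most abundant members. Atp5b (beta) had 1047, 1107 and 1229 CPM in WT and 1108, 1135 and 1169 CPM in LPAR2-/- mice (log2 fold change 0.03, interval -0.05 to 0.11), and Atp5a1 (alpha) 822, 871 and 965 CPM and 883, 920 and 939 CPM (0.06, interval -0.02 to 0.14). The LPAR2-/- values of both lay inside the WT range. Atp5j, a peripheral stalk subunit, had a difference of -0.09 (95% interval -0.17 to -0.01, edgeR adjusted p = 0.193).

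The called gene Atp5g1 is among 3 genes for the c subunit of the proton-driven ring, whose mature proteins are identical and whose targeting peptides differ (chr11:96072793-96075694, minus strand). It had 1.63, 1.98 and 2.48 CPM in WT and 0.948, 1.44 and 1.73 CPM in LPAR2-/- mice, from 20 to 44 reads per library. The ranges overlapped a little, and the log2 fold change was -0.53 (SE 0.151, 95% interval -0.85 to -0.21, edgeR adjusted p = 0.0453). It was called in 2 of 14 fits without a mouse. Per length, WT mice had 2.28 RPKM of Atp5g1, 0.722 RPKM of Atp5g2 and 307 RPKM of Atp5g3, so that nearly all counted c-subunit reads fell on Atp5g3, whose log2 fold change was 0.01 (interval -0.08 to 0.11). Of the stretches of 50 bases, 11.1% of Atp5g1 and 38.3% of Atp5g2 occur in other genes, and 0.0% of Atp5g3, and reads that fit several places were left out of the counts. Atp5g2, at 6 to 15 reads per library, did not pass the filter on low counts.

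Levels between genes were compared as RPKM, CPM per kilobase of the counted exons. The median in WT mice was 73.1 for complex I, 79.0 for complex II, 104 for complex III, 44.9 for complex IV, 107 for complex V and 13.1 for the factors, beside 8.66 for all genes tested. The highest level within each complex was that of Ndufb9 (193 RPKM), Sdha (157), Uqcrh (172), Ndufa4 (314) and Atp5b (593), and that of Sdhaf4 (24.0) among factors. At the low end stood Ndufab1 (2.57 RPKM), Cox4i2 (1.38) and Atp5l (1.07) among tested genes. Several obligate subunits at the low end share sequence with pseudogenes or other genes, 84.8% of stretches for Atp5l and 9.5% for Ndufab1. Such sharing was not confined to scarce members, with 45.6% for Atp5o (122 RPKM in WT mice) and 32.0% for Cox5a (133 RPKM). A relation between sharing and level was not tested. Ndufs5 is listed at 0 reads in all 14 mice, and 95.1% of its exon bases overlap BC002163 on the same strand. The counting left out reads on several genes, and whether Ndufs5 reads were lost in this way was not tested. These levels describe countable reads rather than transcripts.

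**Figure D3:**
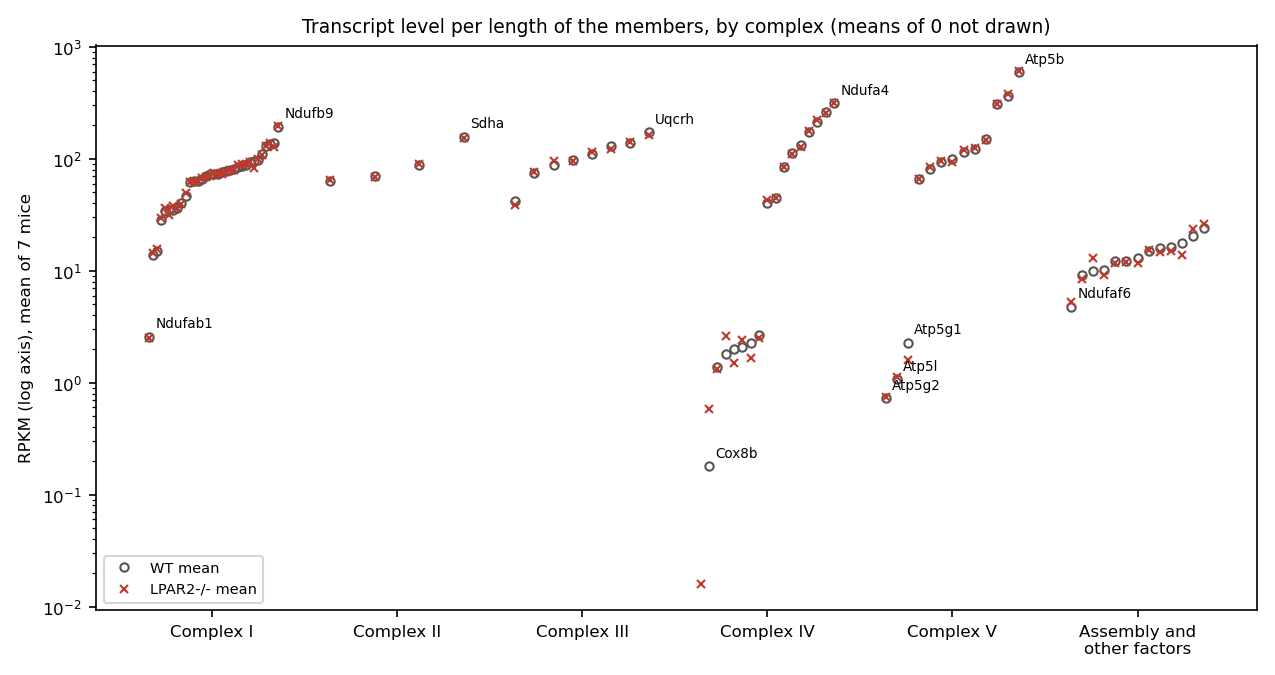
Mean RPKM of every member in 7 WT mice (circles) and 7 LPAR2-/- mice (crosses), on a log axis, sorted within each complex, with means of 0 not drawn. Most circles and crosses coincide, the factors sit below most subunits of complexes I to III, and complexes IV and V split into an abundant and a scarce set.

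How the members varied among mice was seen from the median deviation of each complex from the mean of 14 mice (log2 CPM). WT mouse 1 stood apart, with a subunit median of 0.126 and 69 of 72 subunit genes above their mean. It was highest in complexes I (0.125), III (0.109), IV (0.149) and V (0.130), and second in complex II (0.092), where LPAR2-/- mouse 2 reached 0.098. The lowest subunit medians were those of LPAR2-/- mouse 7 (-0.071), WT mouse 2 (-0.062) and WT mouse 4 (-0.056). The complexes of a mouse share its library and dissection, and the groups overlapped in each complex. In complex I the summed level was 2273, 2398 and 2443 RPKM (lowest, median, highest) in LPAR2-/- and 2288, 2390 and 2604 RPKM in WT mice. In complex V it was 1936, 2038 and 2082 RPKM and 1877, 1968 and 2206 RPKM. Without WT mouse 1 the median log2 fold change of all members was 0.024 instead of 0.003.

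**Figure D4:**
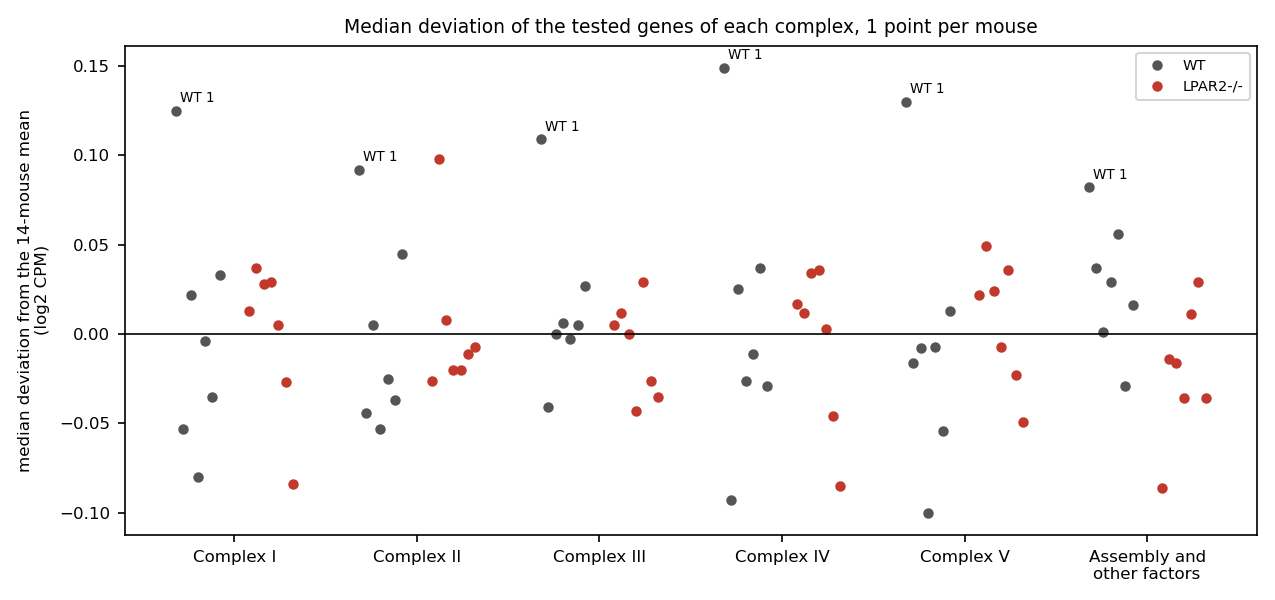
Median deviation of the tested genes of each complex from their mean over 14 mice (log2 CPM), 1 point per mouse, WT in grey and LPAR2-/- in red. WT mouse 1 lies at 0.082 to 0.149 in every group of genes, and the points of both genotypes overlap in each.

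Within a genotype, subunit genes over 10 CPM had a median SD of 0.078 on the log2 CPM scale, beside 0.105 for all genes over 10 CPM. The median SD was 0.085 in complex I, 0.064 in complex II, 0.081 in complex III, 0.124 in complex IV and 0.074 in complex V. With this spread, the 95% interval lay within 1.25-fold either way for 61 of 62 subunit genes over 10 CPM (98.4%) and for 82.6% of all tested genes over 10 CPM. For these 61 genes a difference of more than 1.25-fold lies outside the interval, whereas 2 of the 10 scarcer subunit genes had so narrow an interval.

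Promoters were searched for the words of factors known to drive respiratory genes, in 74 members with a RefSeq promoter (250 bases before to 50 after the start, both strands). Nuclear respiratory factor 1 (NRF1) is the best known of these. Its word, GCGCA followed by any base and GCGC, occurred in 19 members (25.7%) and in 5.19% of 27025 genes. It was found in 7 of 30 complex I genes, 2 of 3 of complex II, 1 of 5 of complex III, 0 of 12 of complex IV, 5 of 12 of complex V and 4 of 12 factors. The YY1 word AAGATGGC occurred in 13.5% of members and 3.19% of genes, the ETS word CCGGAAGT in 6.8% and 4.31%, and the oestrogen-related receptor word TCAAGGTCA in 2.7% and 0.47%. The 4 factors with an NRF1 word are shown with members of complexes II, III and V for comparison. Each is given as 30 bases 5′ to 3′ on the gene's strand, with the match in capitals. In Sdhaf4, Uqcrc1 and Atp5g3 the capitals are the reverse complement of the word. In order, the stretches lie at chr4:24897960-24897989, chr2:140170652-140170681, chr6:6956001-6956030, chr1:24005613-24005642, chr13:74350319-74350348, chr9:50603909-50603938, chr9:108936643-108936672 and chr2:73911295-73911324 (GRCm38.p6).
Ndufaf4: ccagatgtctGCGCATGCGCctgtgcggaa
Ndufaf5: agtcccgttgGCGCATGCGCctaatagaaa
Sdhaf3: cccaccttctGCGCAGGCGCggcgcgatgc
Sdhaf4: ccaccttggtGCGCGTGCGCagacgctgtg
Sdha: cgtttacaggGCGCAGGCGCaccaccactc
Sdhd: tcgctggggtGCGCACGCGCggtggcagcg
Uqcrc1: cttccttacaGCGCTTGCGCctcagactcc
Atp5g3: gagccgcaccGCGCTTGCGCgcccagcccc
Ndufaf4, Ndufaf5 and Sdhaf3 have values below 0 and Sdhaf4 above 0, and Sdha carries 3 matches and Uqcrc1 2. Members with the word had a median log2 fold change of 0.014 (17 tested) and those without of -0.008 (54 tested). Of the 6 called members, 1 (Ndufaf4) had it and 5 did not.

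Other lists of the pathway were read by their counts, beside 3.01% called higher and 3.01% called lower off chromosomes 5 and 8. Of 16 further subunits and carriers, with cytochrome c (Cycs) and coenzyme Q synthesis among them, edgeR, DESeq2 and limma called 0 at an adjusted p of 0.05, 0 had an unadjusted p under 0.05, and their median was -0.02. Of 21 regulators of mitochondrial genes, from Ppargc1a and Nrf1 to Tfam, the 3 tools called 0 (2 at an unadjusted p under 0.05), with a median of 0.01. Of 18 genes of the citric acid cycle, 1 was higher, the mitochondrial isocitrate dehydrogenase Idh2, with a log2 fold change of 0.35 (SE 0.0753, edgeR adjusted p = 0.0129). Of 19 genes for import and the outer membrane 0 were called by edgeR, DESeq2 or limma, and 0 had an unadjusted p under 0.05. Of 70 mitochondrial ribosomal proteins 3 were higher and 2 lower, among them Mrpl14 (0.47, edgeR adjusted p = 0.0291), Mrps6 (-0.27, adjusted p = 0.0206) and Mrps27 (-0.19, adjusted p = 0.0128), and their median was -0.02.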

How the data were processed

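Total RNA of 14 hippocampi was sequenced by the authors after ribosomal RNA depletion. Per the labels and the study's methods, cutadapt 1.18 trimmed the reads, STAR placed them on mm10, and featureCounts 1.6.3 assigned them to exons on the reverse strand, without reads on several genes or places. The deposited values used are these raw counts. A deposited normalized table lacks its decimal points and was not used. Genes passing filterByExpr (14897) were tested with edgeR 4.0.16 (robust quasi-likelihood F test, TMM, no covariates, adjusted p under 0.05) in R 4.3.3. CPM and RPKM are TMM-scaled, and log2 deviations used a prior count of 2. Members, lists and grouping were chosen with earlier results of these data known. Genes named are called members, the 2 next per complex, core subunits, isoforms, extremes of level and called list genes, of which 1 is not reported here. Alternatives were DESeq2 1.42.0, limma 3.58.1 with a pseudocount of 1, other scalings and filters (none, or 10 counts in every library), a replicate block and each mouse left out. On simulated data (14808 genes, 200 changed by a log2 fold of 1), a change larger than that of any member, edgeR recovered 98.5%, and 5.742% of edgeR's and 15.02% of DESeq2's calls were unchanged genes. A count of 0 allows 3 counts, or 0.129 to 0.194 CPM, for counting error only. In 42 same-group pairs, counts differed by more than sampling noise (chi-square at least 3.41 times its degrees of freedom).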

Additional observations from a re-analysis of the deposited data

Results flagged for a closer look

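Among 112 checks for a mouse far from the others of its group, 5 stood out, and chance flags about 1 in 20 groups. WT mouse 1 had the highest Ndufa4 (172 CPM, next mouse 157) and the highest Ndufs7 (61.5 CPM, next mouse 56.0) of its group by a wide gap. WT mouse 7 had the lowest Cox7c (0.525 CPM, next mouse 0.965). LPAR2-/- mouse 5 had 0.0526 CPM of Cox8c, which is 1 read, with 0 in the others of its group. LPAR2-/- mouse 2 had a median deviation of 0.098 over the 4 complex II genes, with the next mouse at 0.008.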

How the results depend on the processing

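With 1 member called higher and 5 lower, DESeq2 called 2 higher and 5 lower, upper quartile scaling 2 higher and 1 lower, no filter on low counts 1 lower, and leaving out each mouse 1 to 2 higher and 1 to 3 lower. Ndufaf2 and Sdhaf1 were called in each of these fits, and Ndufaf4, Sdhaf2, Ndufc2 and Atp5g1 only in some of them, so that leaving out any of the 14 mice lowered the count of lower calls. The cause was not tested. With a replicate block, 1 was higher and 1 lower, and adjusted p was 0.012 for Ndufaf2, 0.0159 for Sdhaf1, 0.0966 for Ndufaf4 and 0.101 for Atp5g1. Of the same-number correlations 3 of 7 were over 0.1 (range -0.334 to 0.311), and 3 of 7 LPAR2-/- mice correlated best with the WT mouse of their number. These values do not decide whether the mouse numbers pair the samples. Over all genes, edgeR called 494 higher and 515 lower, the replicate block 314 and 272, DESeq2 671 and 717, and the fit without WT mouse 2 275 and 292. Among called members, the 2 next per complex, core subunits, isoforms and level extremes, no fold change changed sign past the threshold in any setting. Fold changes of the other genes given above were not followed across settings. Median log2 fold changes ranged from -0.009 to 0.030 for complex I, -0.018 to 0.024 for complex IV, 0.003 to 0.050 for complex V and -0.100 to -0.036 for the factors. Depth limits genes near 1 CPM, where intervals were several times wider.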
